A study of Saccharomyces cerevisiae with 14 samples.

Results

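The genes described here encode enzymes of the tricarboxylic acid (TCA) cycle of budding yeast (Saccharomyces cerevisiae). They were chosen by name, as the rows of a read count table for CIT1 (YNR001C), ACO1 (YLR304C), IDH1 (YNL037C), IDH2 (YOR136W), KGD1 (YIL125W), KGD2 (YDR148C), LSC1 (YOR142W), LSC2 (YGR244C), FUM1 (YPL262W) and MDH1 (YKL085W), and all 10 were found among its 6670 open reading frames. All 10 passed the filter on low counts, among 6337 genes that did. Polyadenylated RNA was sequenced from 14 libraries, 2 in each of 7 groups. Every group, controls included, carries the genotype Z3EVpr-SWI4, in which an estradiol-responsive promoter drives SWI4, the gene of the DNA-binding subunit of SBF, a transcription factor of the G1 to S transition. The groups were untreated cells at 0 h, cells that received the solvent ethanol, and cells that received beta-estradiol at 5 nM in that solvent, each sampled after 1, 2 or 4 h and all grown with 2% glucose. No group lacks the construct and none without it received estradiol, so an effect of the hormone and one of SWI4 cannot be told apart.

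The TCA cycle runs in the mitochondrial matrix, where it oxidises acetyl groups to carbon dioxide, passes electrons to the respiratory chain and supplies carbon skeletons for amino acids such as glutamate. In yeast on ample glucose most sugar is fermented and many of these genes are repressed. The Hap2/3/4/5 complex, which binds CCAAT boxes, raises their transcription when glucose is scarce or the carbon source is respiratory, and the Rtg1/Rtg3 pair, which binds GTCAC, raises CIT1, ACO1, IDH1 and IDH2 when mitochondrial function is compromised. Swi4 acts at other elements, the SBF motifs CACGAAA and CGCGAAA, mainly in genes of the cell cycle and the cell wall.

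The 500 bases before each start codon in the R64 assembly were searched on both strands for these motifs, for the MBF motif ACGCGT and for the Msn2/4 motif CCCCT. The searched window includes the start of the transcript, and the genome build behind the counts was not given in the sources used here. CCAAT was present before 8 of the 10 genes, all but LSC1 and LSC2, against 62.4% of 6006 genes. GTCAC was present before 6 of 10, CIT1, ACO1, IDH1, KGD1, LSC2 and FUM1, against 42.5%, and CCCCT before 8 of 10, all but ACO1 and IDH1, against 34.1%. Neither SBF motif and no MBF motif was found before any of the 10, where 7.14% (CACGAAA), 5.81% (CGCGAAA) and 5.43% (ACGCGT) of all genes hold one. Of the 32 matches before the 10 genes, 0 overlapped another match, and a match or its absence describes letters in this window only. The CCAAT match nearest to each start codon is shown, with the match in capitals, and whether the Hap complex binds there was not tested. Each line runs 5′ to 3′ along the gene's own strand, so that ATTGG is CCAAT on the other strand.
CIT1, citrate synthase, chrXIV:631338-631366, - strand: tacttttgtgttATTGGaggatcgcaatc
ACO1, aconitase, chrXII:737739-737767, - strand: accatcaaacctCCAATcgctgccggttt
IDH1, isocitrate dehydrogenase, chrXIV:559130-559158, - strand: ttcttccgcttcATTGGcttattcttgat
IDH2, isocitrate dehydrogenase, chrXV:580149-580177, + strand: gtgcatgacattATTGGatacactttttc
KGD1, 2-oxoglutarate dehydrogenase, chrIX:122426-122454, + strand: cggtttagattcATTGGgtgtgtactatt
KGD2, 2-oxoglutarate dehydrogenase, chrIV:755382-755410, - strand: gcccggagtgagCCAATaaagcggccaca
FUM1, fumarase, chrXVI:47045-47073, + strand: gggcgttcgatgATTGGctctttcctgta
MDH1, malate dehydrogenase, chrXI:278982-279010, + strand: gtgttagcacgcATTGGgtgtttgtactg
The match shown lay nearest to the start codon in IDH2, 85 bases upstream of it, followed by MDH1 at 125 and IDH1 at 140, and lay farthest in KGD2, at 328 bases.

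**Figure D1:**
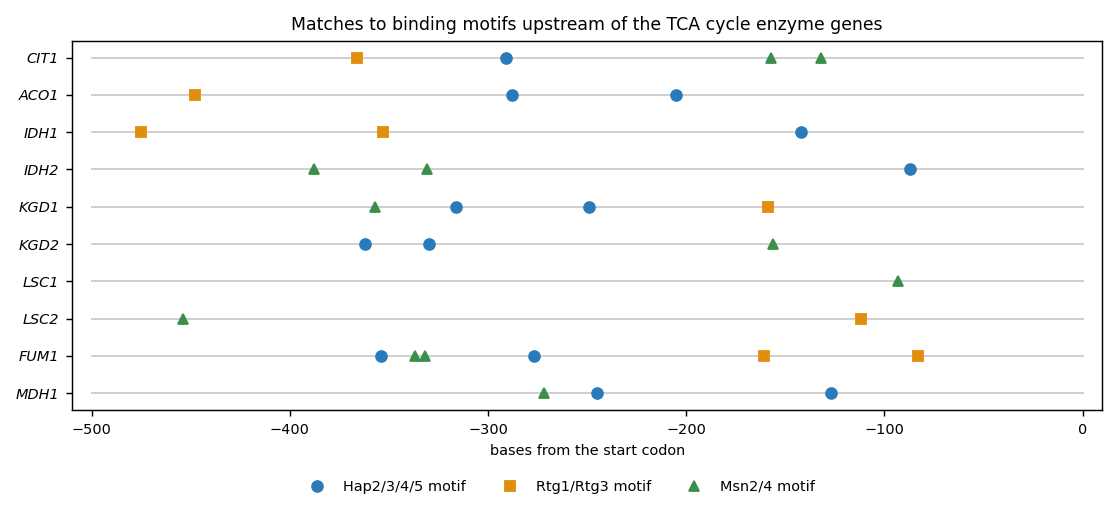
Each line is the 500 bases before the start codon (x axis, bases from the start codon) of 1 gene, and each symbol is a match on either strand to the motif of Hap2/3/4/5 (circles), Rtg1/Rtg3 (squares) or Msn2/4 (triangles). LSC1 and LSC2 have no circle, and the other 8 genes have at least 1.

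Libraries held 3469868 to 17314913 counts, and levels are given as CPM, the counts of a gene scaled to a common library size with TMM factors, which sets the bulk of genes level between libraries. The TMM factors of ethanol 1 h replicate 1 (0.715) and estradiol 2 h replicate 2 (0.708) stood apart from the others (0.899 to 1.23), and the members' medians at 1 and 2 h and the calls are given with and without these libraries. The induced gene behaved as labelled, since SWI4 stood at 17.9 and 20.7 CPM in untreated cells, 12.1 to 23.0 in the 6 ethanol libraries and 668 to 1731 in the 6 estradiol libraries. Markers of a cells were present in every library (6 of 6 genes detected), the lowest in median being ASG7 at 6.73 to 26.0 CPM. Of the 4 alpha cell markers, the pheromone genes MF(ALPHA)1 and MF(ALPHA)2 were at most 0.495 and 2.52 CPM. STE3 read 2.67 to 5.65 CPM and SAG1 14.2 to 20.8 CPM, so these alpha cell markers were detected in every library too. The 6 a cell markers summed to 1343 to 1618 CPM in the untreated and ethanol libraries and to 645 to 855 in the estradiol libraries. All 6 were called lower with estradiol on average (2.93% of all genes), and their part in the results below was not tested. The 4 alpha cell markers summed to 18.8 to 26.0 CPM and the 9 sporulation markers to 71.2 to 94.1 CPM over all groups. Whether the 2 libraries of a group came from separate cultures is not in the labels. A p-value here rests mainly on the spread between such libraries, estimated over all groups fitted and with other genes. This spread may be technical.

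All 10 genes were expressed in every library, and the order of their levels changed between groups mainly for IDH1, ACO1 and FUM1. Levels between genes are compared as CPM per kilobase of coding sequence (mean ± SD, n = 2). In untreated cells the highest levels were those of IDH2, the catalytic subunit of the NAD-dependent isocitrate dehydrogenase, at 172 ± 9.95, of ACO1, which turns citrate into isocitrate, at 166 ± 20.7, and of FUM1, which hydrates fumarate to malate, at 151 ± 17.6. These neighbours in the order lay within each other's spread. LSC1, the alpha subunit of succinyl-CoA ligase, at 130.1 ± 15.3, and IDH1, the regulatory subunit of isocitrate dehydrogenase, at 121 ± 9.46, followed, and the steps from FUM1 to LSC1 and from LSC1 to IDH1 were also smaller than the summed SDs, while IDH1 lay above MDH1, the next, by more than both SDs. MDH1, which oxidises malate to oxaloacetate in the matrix, at 67.4 ± 1.50, CIT1, which joins acetyl-CoA to oxaloacetate, at 66.7 ± 0.795, and KGD2, the succinyltransferase component of 2-oxoglutarate dehydrogenase, at 63.5 ± 5.18, formed a lower set with no gap beyond its spread. LSC2, the beta subunit of succinyl-CoA ligase, stood at 58.7 ± 0.995, within the spread of KGD2. KGD1, the E1 component of 2-oxoglutarate dehydrogenase, was lowest at 21.0 ± 1.95, below LSC2 by far more than either spread. IDH2 was highest and KGD1 lowest in each of the 7 groups. IDH1 ranked 5 in untreated cells, 3 in each ethanol group and 2 in each estradiol group. Over the 7 groups ACO1 ranked 2 to 4 and FUM1 3 to 5.

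**Figure D2:**
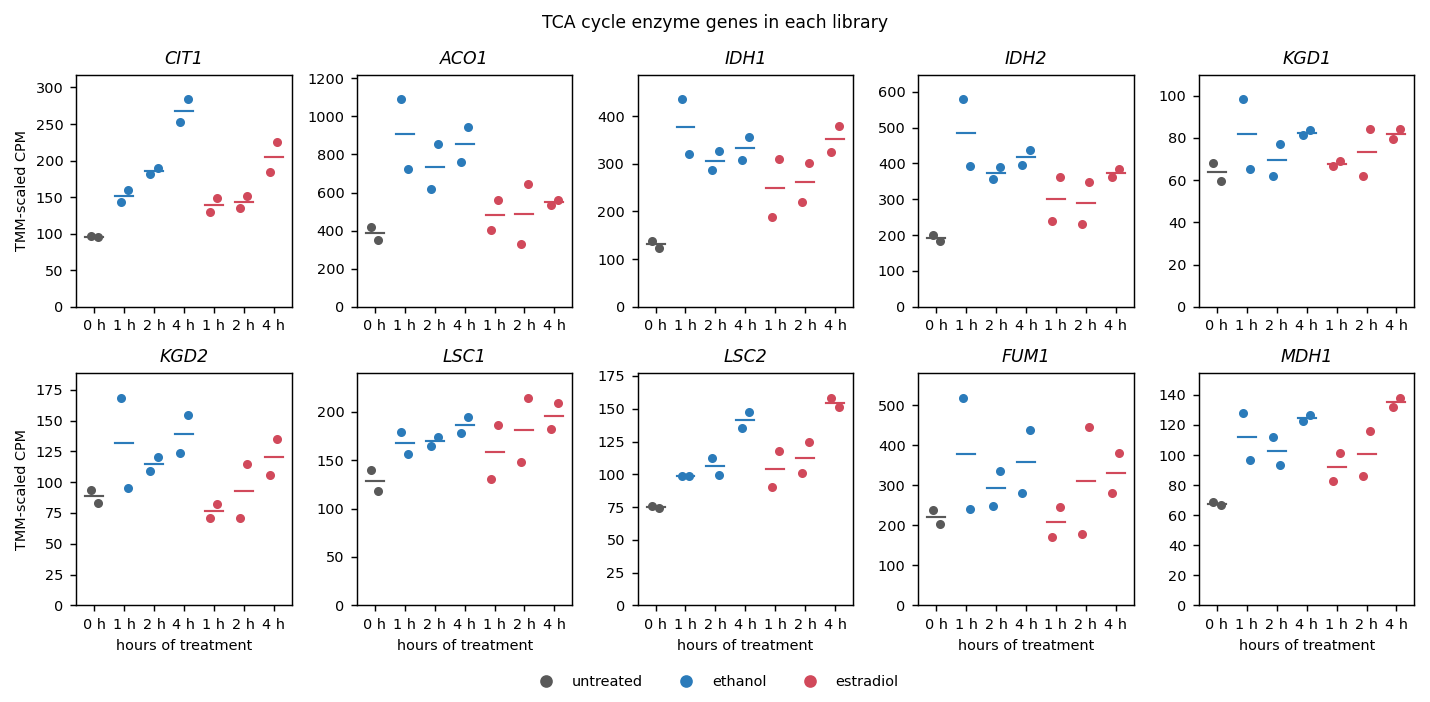
Each panel plots 1 gene's TMM-scaled CPM (y axis, from 0) in each of 14 libraries (points) by hours of treatment, with a bar at the group mean. Untreated libraries (grey) lie at or near the bottom for most genes, and ACO1 is higher in the ethanol libraries (blue, 618 to 1089 CPM) than in most estradiol libraries (red, 328 to 643 CPM).

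At 4 h the TCA cycle genes stood above their untreated level in both treatments. With ethanol for 4 h all 10 had a positive log2 fold change against untreated cells (47.8% of all genes), with a median of 0.90 against -0.02 over all genes tested, and 3 were called higher (CIT1, IDH1 and LSC2; edgeR quasi-likelihood test, Benjamini-Hochberg adjusted p under 0.05), where 1.45% of all genes were called higher. With estradiol for 4 h all 10 were again positive (48.2% of all genes), with a median of 0.78 against -0.02, and 5 were called higher (CIT1, IDH1, IDH2, LSC2 and MDH1), where 6.85% of all genes were. In both, both treated libraries lay above both untreated ones for 10 of 10 genes, where 29.5% (ethanol) and 33.2% (estradiol) of all genes did so. These comparisons share the 2 untreated libraries, and treatment and hours in culture cannot be told apart in them. In bulk RNA, a change in every cell and a change in the mix of cells cannot be told apart.

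CIT1, at the cycle's entry, had the smallest adjusted p of the members at 4 h of both treatments. Its level was 96.9 and 95.3 CPM in the untreated libraries, 144 and 159.8 after 1 h of ethanol, 181 and 189.9 after 2 h and 252 and 284 after 4 h. With estradiol it was 130.2 and 149 at 1 h, 136 and 152 at 2 h and 184 and 226 at 4 h. All 12 treated libraries lay above both untreated ones, the 3 ethanol groups did not overlap each other, and the 4 h groups were the highest of their series. At 4 h the log2 fold change against untreated cells was 1.48 ± 0.18 (SE, n = 2) with ethanol (edgeR adjusted p = 0.00211) and 1.09 ± 0.18 with estradiol (edgeR adjusted p = 0.00300).

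The next enzyme behaved otherwise. ACO1 stood at 421 and 353 CPM in untreated cells, and at 1089 and 724, 618 and 852 and 762 and 946 at the 3 hours of ethanol. The estradiol libraries gave 402 and 559.8 at 1 h, 328 and 643 at 2 h and 534 and 563 at 4 h. All 6 ethanol libraries lay above both untreated ones, while the estradiol libraries at 1 and 2 h overlapped them. At 4 h the log2 fold change from untreated cells was 1.14 ± 0.34 with ethanol (edgeR adjusted p = 0.116) and 0.50 ± 0.34 with estradiol (edgeR adjusted p = 0.371), and neither passed.

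The isocitrate dehydrogenase subunits moved together, with the highest correlation of any of the 45 pairs of members across the 14 libraries (r = 0.963 on log2 CPM, a description over libraries that share treatment and depth). IDH1 read 139 and 124 CPM in untreated cells, 435 and 320.4, 286 and 326 and 308 and 356 along the ethanol series, and 189 and 309.7, 219.9 and 302 and 324 and 378 along the estradiol series. IDH2 read 199 and 184 CPM in untreated cells, 579 and 393, 357 and 389 and 397 and 439 with ethanol, and 239 and 362, 231 and 348 and 362 and 385 with estradiol. For both subunits all 12 treated libraries lay above both untreated ones, and the highest was ethanol 1 h replicate 1, which has the low TMM factor. At 4 h IDH1 was higher than in untreated cells by a log2 fold change of 1.34 ± 0.28 with ethanol (edgeR adjusted p = 0.0336) and 1.42 ± 0.28 with estradiol (edgeR adjusted p = 0.00769). IDH2 gave 1.13 ± 0.28 with ethanol (edgeR adjusted p = 0.0672), which did not pass, and 0.96 ± 0.28 with estradiol (edgeR adjusted p = 0.0464), which did.

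Of the 2-oxoglutarate dehydrogenase genes, KGD1 had the narrowest range of all 10 members (1.64-fold) and KGD2 a range of 2.38-fold. KGD1 ran over the 14 libraries from 59.8 CPM (untreated replicate 2) to 98.3 CPM (ethanol 1 h replicate 1), with a median of 73.2. KGD2 ranged from 70.8 CPM (estradiol 1 h replicate 1) to 168 CPM (ethanol 1 h replicate 1), with a median of 107. KGD2 was also the only member whose estradiol 1 h libraries, at 70.8 and 82.6 CPM, both lay below the untreated ones, at 93.5 and 83.3, where 22.5% of all genes did. Against untreated cells at 4 h, KGD1 changed by 0.37 ± 0.22 with ethanol and 0.36 ± 0.22 with estradiol (edgeR adjusted p = 0.434 and 0.320), and KGD2 by 0.65 ± 0.29 and 0.44 ± 0.29 on the log2 scale (edgeR adjusted p = 0.273 and 0.348).

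Of the succinyl-CoA ligase subunits, LSC2 was called higher at 4 h in both treatments and LSC1 in neither. LSC2 stood at 76.2 and 74.4 CPM in untreated cells, 98.7 and 98.6, 112 and 99.6 and 136 and 148 with ethanol, and 90.1 and 118, 101 and 125 and 158 and 151 with estradiol. All 12 treated libraries lay above the untreated ones, and the 4 h libraries of both treatments were above every other library. The log2 fold change at 4 h was 0.91 ± 0.18 with ethanol (edgeR adjusted p = 0.0301) and 1.04 ± 0.18 with estradiol (edgeR adjusted p = 0.00430). LSC1 ranged from 118 to 214 CPM over the libraries with a median of 176, and its log2 fold changes at 4 h were 0.53 ± 0.23 and 0.60 ± 0.23 (edgeR adjusted p = 0.263 and 0.118). Whether LSC1 and LSC2 differ in their change was not tested.

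At the end of the cycle, FUM1 had the largest difference between replicates of all 10 genes, and MDH1 was called at 4 h of estradiol. FUM1 read 239 and 203 CPM in untreated cells, 518 and 239.9, 249 and 336 and 280.1 and 437 with ethanol, and 171 and 245, 179 and 445 and 280.3 and 380.4 with estradiol. Replicates of FUM1 differed 2.16-fold in ethanol 1 h and 2.49-fold in estradiol 2 h, the pairs that hold the libraries with low TMM factors, and its changes at 4 h, 0.70 ± 0.45 and 0.58 ± 0.45 (SE), did not pass (edgeR adjusted p = 0.468 and 0.433). MDH1 read 68.8 and 66.6 CPM in untreated cells, 128 and 96.5, 112 and 93.5 and 122 and 127 with ethanol, and 82.7 and 101, 86.0 and 116 and 132 and 138 with estradiol. All 12 treated libraries of MDH1 lay above the untreated ones, and its change at 4 h was 0.88 ± 0.21 with ethanol (edgeR adjusted p = 0.0592) and 1.00 ± 0.21 with estradiol (edgeR adjusted p = 0.0103).

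In all, 5 of the 10 genes (CIT1, IDH1, IDH2, LSC2 and MDH1) had every treated library above both untreated libraries, where 5.95% of all genes did. At 1 and 2 h no member was called against untreated cells by edgeR. The medians of the log2 fold changes were 0.69 and 0.55 with ethanol at 1 and 2 h, and 0.38 and 0.54 with estradiol. When both libraries of low TMM factor were left out, these medians were 0.43 and 0.54 with ethanol and 0.40 and 0.24 with estradiol, and again no member was called. At an unadjusted p under 0.05 edgeR gave 5 and 6 members with ethanol (4.86% and 4.2% of all genes, higher) and 4 and 4 with estradiol (5.98% and 9.37%), all higher. After adjustment DESeq2 called 3 and 2 members higher with ethanol (0.339% and 0.54% of all genes) and 2 and 3 with estradiol (2.0% and 4.42%). Among all genes edgeR called 0.0% and 0.0473% higher at 1 and 2 h of ethanol, and 1.01% and 2.51% higher at 1 and 2 h of estradiol. Both treated libraries lay above both untreated ones for 9 and 9 members with ethanol (19.9% and 22.3% of all genes), and for 5 and 6 with estradiol (21.0% and 20.3%).

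The calls at 4 h rest on few libraries. Without untreated replicate 1 or replicate 2 no member was called with ethanol, and without ethanol 4 h replicate 1 or replicate 2 only CIT1 was. With estradiol, 2 were called without untreated replicate 1, 0 without untreated replicate 2, 4 without estradiol 4 h replicate 1 and 2 without its replicate 2. Every member's log2 fold change at 4 h stayed positive in all of these. Leaving out both libraries of low TMM factor gave 6 members with ethanol and 5 with estradiol. In that fit 441 and 1346 of 6414 genes were called, against 110 and 675 in the main fit. The counts of all genes called fell in the fits without 1 library.

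**Figure D3:**
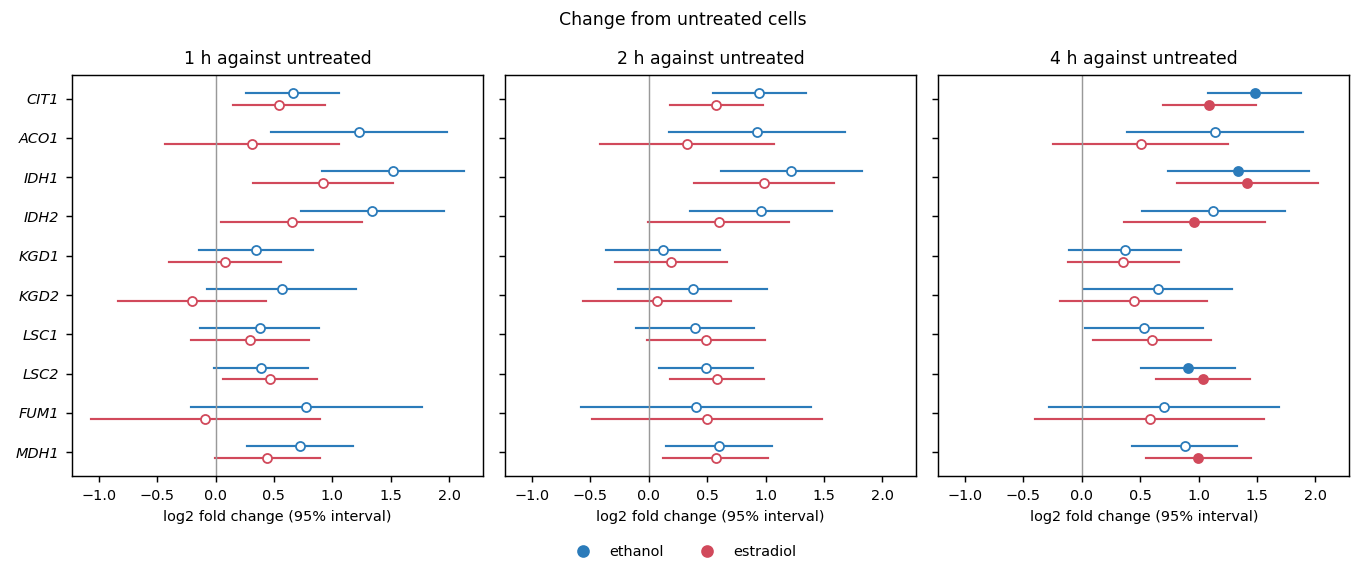
Points are log2 fold changes against untreated cells (x axis) of each gene after 1, 2 and 4 h of ethanol (blue) or estradiol (red), lines are 95% intervals, and filled points were called at an adjusted p under 0.05. Filled points occur at 4 h only, for 3 genes with ethanol and 5 with estradiol, and KGD1 lies nearest to 0 at that time.

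In the design's main contrast, estradiol against ethanol at the same hour, 9, 6 and 6 of the 10 members had negative log2 fold changes at 1, 2 and 4 h. No member was called at 1, 2 or 4 h by edgeR or by DESeq2, which called 2.55%, 2.23% and 3.04% of all genes. With 2 libraries per group, the lack of a call does not show that a change was small. At an unadjusted p under 0.05 edgeR gave 4 members at 1 h (ACO1, KGD2, IDH2 and IDH1, all lower), 0 at 2 h and 0 at 4 h, where 9.72%, 6.39% and 7.84% of all genes passed. Among all genes edgeR called 0.489%, 0.363% and 0.694% lower and 0.473%, 0.899% and 1.18% higher at these hours. Both estradiol libraries lay below both ethanol libraries for 4 members at 1 h (16.7% of all genes) and 2 at 2 h (12.9%). The medians of the members' log2 fold changes were -0.44, -0.13 and -0.07, against 0.01, 0.02 and -0.01 over all genes. Without both libraries of low TMM factor the medians were -0.16 at 1 h and -0.46 at 2 h, with 0 and 3 members (ACO1, IDH2 and KGD2) at an unadjusted p under 0.05 by edgeR, where 5.05% and 12.1% of all genes passed, and no member was called.

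Averaged over the 3 hours, ACO1 was the 1 member called, and it was lower with estradiol, where 2.93% of all genes were called lower and 3.29% higher. The values given above show both estradiol libraries below both ethanol libraries at 1 h and at 4 h, and an overlap at 2 h, where estradiol replicate 2, at 643 CPM, exceeded ethanol replicate 1, at 618. The averaged log2 fold change was -0.71 ± 0.19 (edgeR adjusted p = 0.0477), or 0.613-fold with a 95% interval of 0.460 to 0.817. This call is close to the threshold. Over the alternatives its adjusted p ran from 1.2e-05 to 0.136 and its log2 fold change from -0.87 to -0.59, and of 12 fits without 1 library, only that without estradiol 2 h replicate 2 kept it (edgeR adjusted p = 0.0095). Without both libraries of low TMM factor it was kept, at -0.77 (edgeR adjusted p = 0.0151).

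IDH2 was the 1 member with both estradiol libraries below both ethanol libraries at every hour, where 4.21% of all genes were. Its averaged log2 fold change of -0.40 ± 0.16 did not pass (edgeR adjusted p = 0.243), nor did those of KGD2 at -0.41 ± 0.17 (edgeR adjusted p = 0.246) and CIT1 at -0.28 ± 0.11 (edgeR adjusted p = 0.193). CIT1 lay below ethanol in both libraries at 2 and at 4 h and overlapped at 1 h. For the remaining 6 genes the averaged 95% intervals of the fold included no change: LSC1 had 0.852 to 1.24, LSC2 0.929 to 1.25, MDH1 0.808 to 1.16 and KGD1 0.797 to 1.16. IDH1 had an interval of 0.659 to 1.09 and FUM1 the widest, 0.543 to 1.24. LSC2 and MDH1 were the 2 members with both estradiol libraries above both ethanol ones at 4 h, where 19.3% of all genes were, and 3 members (CIT1, ACO1 and IDH2) had them below at that hour, where 17.7% were.

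The estradiol effect was not shown to differ between hours for any member. In the joint test of its change with time no member and no gene was called by edgeR, with 0 members and 72 genes at an unadjusted p under 0.05, and DESeq2 called 0 members and 2 genes. The members' smallest adjusted p was 0.999.

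**Figure D4:**
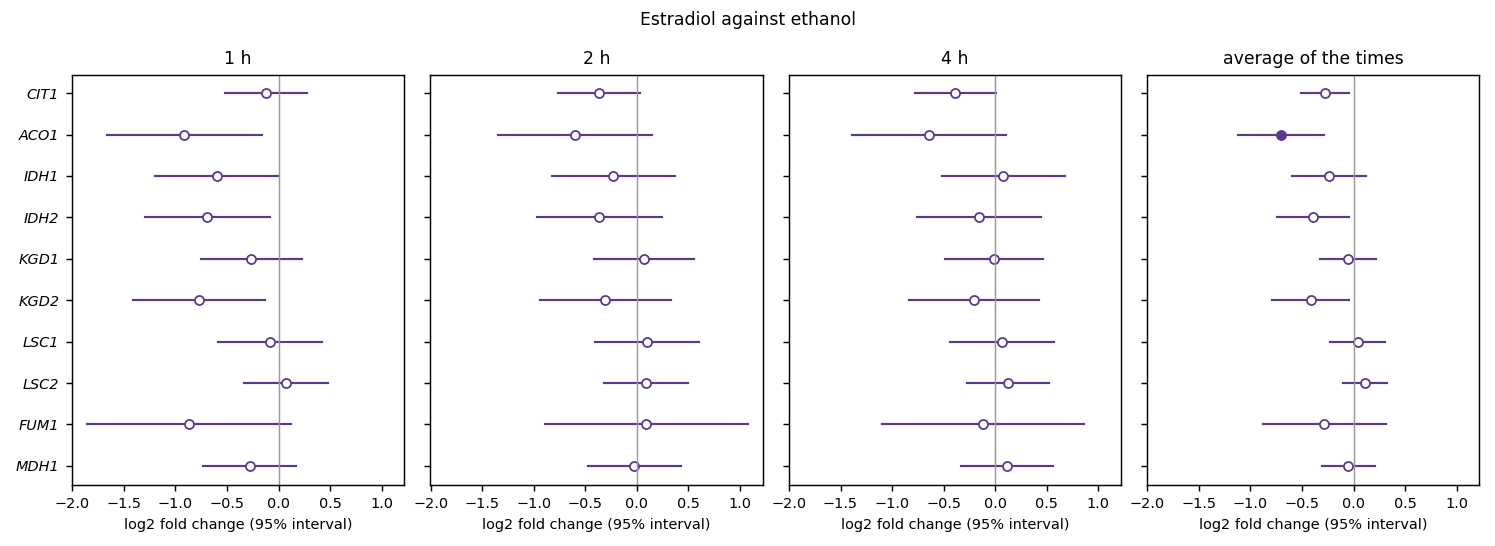
Points are log2 fold changes of estradiol against ethanol (x axis) for each gene at 1, 2 and 4 h and averaged over these hours, lines are 95% intervals, and a filled point was called at an adjusted p under 0.05. The only filled point is ACO1 in the average, at -0.71.

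Scaling bears on how these genes look when summed. As a plain share of each library's counts the 10 genes took 0.155% and 0.150% in untreated cells. With ethanol the share was 0.246% and 0.257% at 1 h, 0.257% and 0.244% at 2 h, and 0.302% and 0.285% at 4 h. With estradiol it was 0.193% and 0.226% at 1 h, 0.192% and 0.180% at 2 h, and 0.249% and 0.240% at 4 h. On this scale both estradiol libraries lay below both ethanol libraries at every hour, and all 12 treated libraries above the untreated ones. After TMM scaling the same sums overlapped between the treatments at 2 h, with 1562 and 2544 CPM for estradiol against 2252 and 2659 for ethanol, and at 4 h, with 2341 and 2649 against 2640.3 and 3170 CPM. At 1 h they were 1571 and 2183 against 3436 and 2349 CPM and did not overlap. ACO1 alone supplied 21.0% to 32.0% of the members' summed counts, so these sums lean on it.

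**Figure D5:**
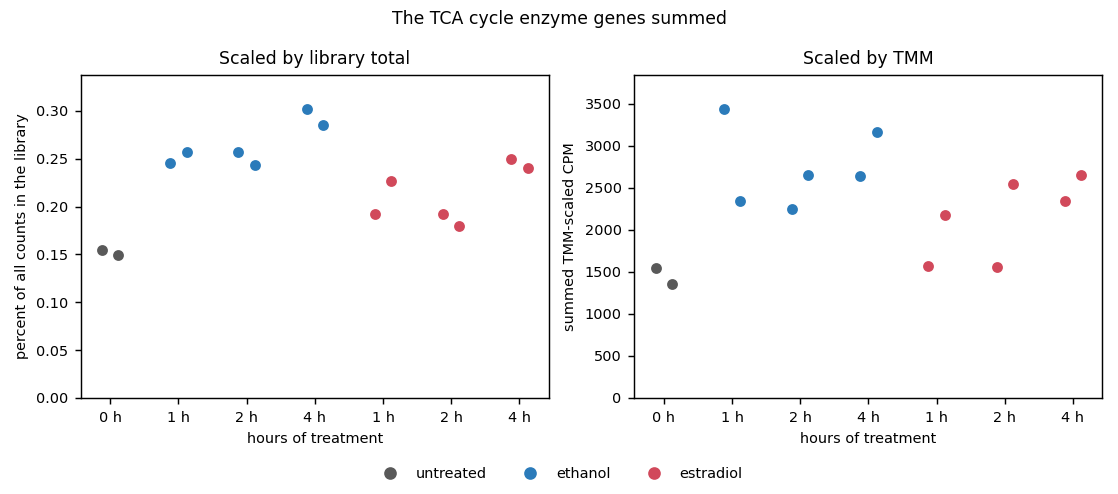
The left panel plots the 10 genes' summed percent of all counts and the right panel their summed TMM-scaled CPM (y axes, from 0) in each library (points) by hours of treatment. On the left the replicates lie closer together and the estradiol points (red, 0.180% to 0.249%) lie below the ethanol points (blue) of the same hour, while on the right they overlap at 2 and 4 h.

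The ratio of 2 subunits within a library does not depend on scaling. IDH1 over IDH2, per kilobase of coding sequence, was 0.713 and 0.693 in untreated cells and higher in all 12 treated libraries. It was 0.820 and 0.860 at 2 h and 0.796 and 0.832 at 4 h with ethanol, and 0.973 and 0.889 at 2 h and 0.916 and 1.01 at 4 h with estradiol. At 2 and 4 h the estradiol libraries lay above the ethanol ones, and at 1 h the treatments overlapped. KGD1 over KGD2 was 0.267 and 0.313 at 1 h and 0.259 and 0.293 at 2 h with ethanol, and 0.429 and 0.382 at 1 h and 0.400 and 0.334 at 2 h with estradiol. These did not overlap, whereas at 4 h the ratio was 0.300 and 0.248 with ethanol and 0.343 and 0.285 with estradiol and did. LSC1 over LSC2 was 1.49 to 1.79 in the 4 libraries taken at 4 h and 1.87 to 2.37 in all others. These ratios were not tested, and a group of 2 against 2 cannot reach a p of 0.05 in a permutation test. How often the ratios of other pairs of genes separate in these ways was not counted, so no background stands beside them.

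In TMM-scaled values, a difference between replicates ran through most of these genes. Replicates were ordered by a surrogate variable estimated from the whole table. The replicate with the larger value had the higher level of ACO1, IDH1, IDH2, KGD1, KGD2, LSC1 and FUM1 in all 7 groups. In each group that replicate also had the smaller TMM factor, by which CPM are divided, so this agreement depends in part on the scaling. As a share of plain counts, the 10 genes summed were lower in that replicate at each hour of ethanol and at 2 and 4 h of estradiol. They were higher in it in untreated cells and at 1 h of estradiol. For FUM1 the TMM-scaled difference was 0.24 to 1.32 on the log2 scale with a median of 0.52, for ACO1 0.08 to 0.97, and for KGD2 0.14 to 0.82. CIT1, LSC2 and MDH1 were higher in 6, 5 and 6 of the 7 pairs, with medians of 0.16, 0.03 and 0.06. The correlation of a member's log2 CPM with the surrogate variable over the 14 libraries was highest for FUM1 (r = 0.98) and lowest for CIT1 (r = 0.40) and LSC2 (r = 0.42). With the TMM factor used in scaling CPM, r was negative for every member, from -0.92 for FUM1 to -0.22 for LSC2 and -0.16 for CIT1. These are descriptions over libraries that share treatment. The share of all genes that follow the surrogate variable in this way was not counted. With this variable in the model 8 members were called higher at 4 h of ethanol (10.4% of all genes) and 6 at 4 h of estradiol (19.1%) against untreated cells, and 4 were called lower with estradiol on average (ACO1, CIT1, IDH2 and KGD2), where 9.51% of all genes were.

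The members were positively correlated with each other across the libraries, and the 6 other genes most like them are named here. How many further genes, or pairs of other genes, had correlations this high was not counted. The 45 pairs of members had correlations of log2 CPM from 0.417 (ACO1 with LSC2) to 0.963, with a median of 0.745. Of 5290 genes with a mean of at least 10 CPM, those most like the members' mean profile over 14 libraries were TUF1, the mitochondrial translation elongation factor (r = 0.964), MSS51, a translational activator of COX1 mRNA (r = 0.964), ARA1, an arabinose dehydrogenase (r = 0.961), MRPL28, a mitochondrial ribosomal protein (r = 0.953), QCR2, a subunit of the cytochrome bc1 complex (r = 0.953), and HXT3, a hexose transporter (r = 0.951).

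Succinate dehydrogenase completes the cycle and is also part of the respiratory chain. SDH1, the flavoprotein subunit, read 19.4 and 20.4 CPM in untreated cells, 51.9 and 76.9 after 4 h of ethanol, and 68.2 and 91.8 after 4 h of estradiol. Of 6 listed genes (SDH1 to SDH4, LPD1 and KGD4), 2 were called higher at 4 h of estradiol against untreated cells (6.85% of all genes), SDH1 by 2.01 ± 0.41 (edgeR adjusted p = 0.0098) and SDH2, the iron-sulfur subunit, by 1.22 ± 0.30 (edgeR adjusted p = 0.0253), on the log2 scale. None of the 6 was called at 4 h of ethanol, where SDH1 changed by 1.70 ± 0.40 (edgeR adjusted p = 0.0615), and the medians were 1.10 with estradiol and 1.17 with ethanol. None was called between estradiol and ethanol. Of the 4 listed genes of pyruvate dehydrogenase, which makes the cycle's acetyl-CoA, none was called in any comparison, with medians of 0.42 and 0.49 at 4 h of ethanol and estradiol against untreated cells.

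Of 13 regulators, 4 were called higher at 4 h of estradiol against untreated cells, where 6.85% of all genes were, and none in any other comparison. HAP4, the activating subunit of the Hap complex, read 51.2 and 70.1 CPM in untreated cells, 124 and 146 after 4 h of ethanol, and 115 and 152 after 4 h of estradiol. Its log2 fold change at 4 h of estradiol against untreated cells was 1.14 ± 0.31 (edgeR adjusted p = 0.0357). The others were ADR1, an activator of glucose-repressed genes, at 0.80 ± 0.21 (edgeR adjusted p = 0.0325), MIG1, a repressor in glucose, at 0.75 ± 0.21 (edgeR adjusted p = 0.0423), and HAP2, a DNA-binding subunit of the Hap complex, at 0.80 ± 0.18 (edgeR adjusted p = 0.0179). Of 5 glucose-repressed genes outside the cycle (FBP1, ADH2, ACS1, JEN1 and SUC2) none was called in any comparison, with medians of 0.58 and 0.54 at 4 h.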

How the data were processed

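The deposited table holds whole-number read counts per open reading frame with no normalization, as deposited by the authors. The aligner was Bowtie2 2.2.5, per the submitters' processing notes. Per the labels' protocols, RNA was poly-A selected and libraries were made with a Kapa kit. The counting tool, strand setting and genome build were not given in the sources used here. Per the labels' protocols, treatment lasted 1 h only, while sample labels give 1, 2 or 4 h and formed the groups.

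From the counts, edgeR 4.0.16 in R 4.3.3 fitted a robust quasi-likelihood model with TMM scaling and 1 coefficient per group to 14 libraries. Genes passed filterByExpr with a minimum count of 10 (6337 genes). The common biological coefficient of variation was 0.206. Tests were 2-sided with Benjamini-Hochberg adjustment over all genes tested and a threshold of 0.05. The average over hours was fitted to the 12 treated libraries, with a term for each hour (6320 genes). An SE was obtained from each log2 fold change and its F (size over root F), and 95% intervals use the test's own degrees of freedom. CPM are TMM-scaled, and correlations used log2 CPM with a prior count of 2.

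Depth was 3469868 to 17314913 counts, and the members had 245 to 13792 counts per library. Alternatives were RLE factors, library totals, other filters, a replicate block, 1 surrogate variable (sva 3.50.0), separate fits, DESeq2 1.42.0 and leaving out libraries. Symbols of 5999 of 6670 identifiers came from R64. Genes of the other lists were eligible to be named if among the 3 smallest p-values of their list in the average or at 4 h of ethanol against untreated cells, with HAP4 in addition. The list of isozymes is not reported here. All 10 members, the lists, the motifs and the tests were chosen with earlier results of these data known.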

Additional observations from a re-analysis of the deposited data

How the results depend on the processing

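Over 1380 recomputed log2 fold changes of the members, 1210 kept their direction and side of the threshold, 41 lost a call, 68 gained one and 61 reversed. No reversed value was of a gene called in that same comparison, and the largest was 0.50 in size as reported. Calls of members against untreated cells were all higher and those of estradiol against ethanol all lower, in every alternative run. The counts moved more, and the cause was not tested. With RLE factors, with a mean of at least 10 CPM and with the mean of the 3 contrasts, no member was called in the average. With library totals, 1 was called at 2 h and 1 at 4 h of estradiol against ethanol (ACO1), where 87 and 119 of all genes were. In that setting 1 was called at 1 h and 2 at 4 h of estradiol against untreated cells, where 80 and 377 of all genes were. With a surrogate variable the counts were 1, 2 and 4 for estradiol against ethanol at 2 h, at 4 h and on average. There 408, 649 and 1232 of all genes were called. Against untreated, they were 3, 5 and 8 for ethanol at 1, 2 and 4 h, where 31, 161 and 1273 of all genes were called. For estradiol at 1 and 2 h they were 5 and 6, where 990 and 1411 of all genes were called. Fits of only the groups compared gave 5 and 7 for ethanol at 2 and 4 h, where 255 and 853 of all genes were called. For estradiol at 1 and 4 h such fits gave 1 and 8, where 271 and 1855 of all genes were called. DESeq2 gave 3, 2 and 6 for ethanol at 1, 2 and 4 h, where 22, 40 and 484 of all genes were called. It gave 2 and 3 for estradiol at 1 and 2 h, where 226 and 439 were, and 2 for the average, where 544 were. Without both libraries of low TMM factor 6 were called at 4 h of ethanol. Leaving out 1 library gave 0 to 1 at 4 h of ethanol, 0 to 1 at 2 h and 0 to 4 at 4 h of estradiol against untreated cells, and 0 to 1 for the average.

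Library totals moved the median of all genes by 0.31 for estradiol against ethanol at 1 h, by -0.21 and 0.10 for ethanol and estradiol at 1 h against untreated cells, and by -0.12 for estradiol at 2 h, so directions of small changes there are relative to these shifts. Counts of all genes called also moved by over 1.5 times. For the average 393 were called, 1232 with a surrogate variable and 219 to 445 without 1 library. For estradiol against ethanol at 1, 2 and 4 h, 61, 80 and 119 were called, 274, 408 and 649 with a surrogate variable, and 157, 149 and 203 by DESeq2. Fits of only those groups gave 97 at 1 h and 40 at 2 h, and leaving out both libraries of low TMM factor 210 at 4 h. Leaving out 1 library of the groups compared lowered the count at 4 h in every such fit. It moved the counts at 1 and 2 h in both directions. At 1 and 2 h against untreated cells, 0 and 3 genes were called with ethanol and 97 and 220 with estradiol. With a surrogate variable these were 31, 161, 990 and 1411, by DESeq2 22, 40, 226 and 439, and in fits of only those groups 0, 255, 271 and 41. Without both libraries of low TMM factor 8 were called at 2 h of ethanol and 237 at 1 h of estradiol. Library totals gave 1 gene at 1 h of ethanol. The change with time gave 16 genes with a surrogate variable. At 4 h against untreated cells, 110 genes were called with ethanol, 1273 with a surrogate variable, 484 by DESeq2, 853 in a fit of only those groups, 441 without both libraries of low TMM factor and 10 to 71 without 1 library. With estradiol at 4 h 675 were called, 2390 with a surrogate variable, 1122 by DESeq2, 1855 in a fit of only those groups, 1346 without both libraries of low TMM factor, 377 with library totals and 183 to 409 without 1 library. By the rule used, replicate numbers did not pair the samples, since not every pair of groups had same-numbered libraries that deviated together. Same-numbered libraries did so with r of 0.314 to 0.741 in the 10 pairs among ethanol 2 and 4 h and the estradiol groups and of 0.604 for untreated with ethanol 1 h, and with r of -0.69 to -0.27 in the 10 pairs between these sets. At 2 h ACO1 was lower with estradiol in both same-numbered pairs, but the share of all genes that were so was not counted. A replicate block left the count of members at 3 for 4 h of ethanol, 5 for 4 h of estradiol and 1 for the average, and at 0 elsewhere, and moved the count of all genes from 110 to 175 for 4 h of ethanol and from 3 to 5 for 2 h. Each group held 2 libraries and the lowest depth was 3469868 counts. How depth sets the smallest change that can be called was not tested.

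The reversed log2 fold changes, none of them called in its own comparison, were as follows. With library totals the reversed values were, for estradiol against ethanol at 1 h CIT1 0.18, KGD1 0.11, LSC1 0.24 and MDH1 0.069, for estradiol against ethanol at 2 h KGD1 -0.057, LSC1 -0.057, LSC2 -0.047 and FUM1 -0.15. Others in that setting were, for 1 h of estradiol against untreated FUM1 0.0013, for 2 h of estradiol against untreated KGD2 -0.14. With a surrogate variable the reversed values were, for estradiol against ethanol at 1 h KGD1 0.00060 and LSC1 0.15, for estradiol against ethanol at 2 h FUM1 -0.020. Others in that setting were, for 2 h of estradiol against untreated KGD2 -0.12, for estradiol against ethanol on average KGD1 0.018 and MDH1 0.014. Without both libraries of low TMM factor the reversed values were, for estradiol against ethanol at 1 h KGD1 0.090 and LSC1 0.054, for estradiol against ethanol at 2 h KGD1 -0.16, LSC1 -0.19, LSC2 -0.065 and FUM1 -0.71. Others in that setting were, for 2 h of estradiol against untreated ACO1 -0.23, KGD1 -0.040, KGD2 -0.31 and FUM1 -0.30, for estradiol against ethanol on average LSC1 -0.017. For estradiol against ethanol at 1 h, leaving out 1 library at a time gave KGD1 -0.50 to 0.055, LSC1 -0.36 to 0.18 and LSC2 -0.13 to 0.28. For estradiol against ethanol at 2 h, leaving out 1 library at a time gave KGD1 -0.16 to 0.28, KGD2 -0.69 to 0.010, LSC1 -0.19 to 0.34, LSC2 -0.065 to 0.24, FUM1 -0.71 to 0.61 and MDH1 -0.25 to 0.18. For estradiol against ethanol at 4 h, leaving out 1 library at a time gave IDH1 -0.038 to 0.19, KGD1 -0.053 to 0.021, LSC1 -0.037 to 0.15 and FUM1 -0.42 to 0.24. For 2 h of ethanol against untreated, leaving out 1 library at a time gave KGD1 -0.049 to 0.28. For 1 h of estradiol against untreated, leaving out 1 library at a time gave FUM1 -0.37 to 0.16. For 2 h of estradiol against untreated, leaving out 1 library at a time gave ACO1 -0.23 to 0.74, KGD1 -0.039 to 0.41, KGD2 -0.31 to 0.39 and FUM1 -0.30 to 1.02. For estradiol against ethanol on average, leaving out 1 library at a time gave KGD1 -0.14 to 0.042, LSC1 -0.050 to 0.10 and MDH1 -0.12 to 0.026.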

Other observations

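PYC1, a pyruvate carboxylase that makes oxaloacetate, read 56.6 and 56.8 CPM in untreated cells and 97.9 to 145 in the 6 ethanol libraries. With estradiol it read 190 to 245 at 1 h, 238 to 505 at 2 h and 355 to 393 at 4 h. The estradiol libraries did not overlap the ethanol ones, and the averaged log2 fold change was 1.38 ± 0.22 (edgeR adjusted p = 0.0020). PYC2 is a close copy of PYC1, and how reads shared by both were counted was not given in the sources used here, which leaves the value of PYC1 uncertain to that extent. Of 6 listed genes of the glyoxylate cycle and anaplerosis, PYC1 alone was called for estradiol against ethanol on average, where 3.29% of all genes were called higher.

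Of 11 mitochondrial carriers, 3 were called for estradiol against ethanol on average, 2 higher and 1 lower, where 3.29% of all genes were called higher and 2.93% lower. DIC1, the dicarboxylate carrier, was higher by 0.99 ± 0.19 (edgeR adjusted p = 0.0082) and ODC2, an oxodicarboxylate carrier, by 0.64 ± 0.17 (edgeR adjusted p = 0.0474), while CTP1, the citrate carrier, was lower by a log2 fold change of -0.79 ± 0.14 (edgeR adjusted p = 0.0035). CTP1 read 182 to 310 CPM in the ethanol libraries and 102 to 144 in the estradiol libraries. At 4 h of estradiol against untreated cells, 2 of the 11 were called higher (MPC3 and DIC1) and 1 lower (CTP1). In that comparison 6.85% of all genes were called higher, and 675 of 6337 in either direction. MPC3, a subunit of the mitochondrial pyruvate carrier, was higher there by 3.29 ± 0.47 on the log2 scale (edgeR adjusted p = 0.0011) and was not called in the average. None of the 11 was called at 4 h of ethanol against untreated cells. Treatment and hours in culture cannot be told apart in these comparisons.

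Of 10 respiratory chain genes, 3 (NDI1, RIP1 and CYT1) were called higher at 4 h of ethanol (1.45% of all genes) and 6 at 4 h of estradiol (6.85%), both against untreated cells, and none for estradiol against ethanol. NDI1, the internal NADH dehydrogenase, read 40.1 and 46.4 CPM in untreated cells, 91.0 and 130 after 4 h of ethanol, and 93.6 and 125 after 4 h of estradiol. At 4 h of estradiol the smallest p was that of CYC1, the gene of cytochrome c, which was higher than in untreated cells by 1.91 ± 0.32 on the log2 scale (edgeR adjusted p = 0.0030). Of 10 glycolysis genes none was called in any comparison, with medians of 0.49 and 0.61 at 4 h of ethanol and estradiol against untreated cells. At 1 h of ethanol against untreated cells their median was 0.82, and that of the TCA cycle genes 0.69. For estradiol against ethanol the glycolysis medians were -0.62 at 1 h and 0.35 at 2 h, and those of the TCA cycle genes -0.44 and -0.13.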
